A study of Mus musculus with 31 samples.

Results

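Thyroid hormone reaches hypothalamic cells in a series of steps, and 7 genes that carry out those steps were followed here: the transporter gene Slco1c1, the deiodinase gene Dio2, the intracellular binding protein gene Crym, the nuclear receptor genes Thra and Thrb, and the hormone-responsive genes Klf9 and Hr. They were chosen by name from the 54532 genes of the deposited count table, 7 of 7 were found there, and 7 of 7 passed the filter on low counts. RNA was sequenced from hypothalami of C57BL/6J mice aged 4 months, with 31 libraries in 4 groups set by the diet of the dam and the sex of the young. The diet groups asked whether a dam's obesogenic diet leaves a mark on the hypothalamus of her adult young.

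OB females (7 libraries) and OB males (8 libraries) were offspring of dams that ate a high-fat, high-sugar obesogenic diet while pregnant and nursing. CON females (8 libraries) and CON males (8 libraries) were offspring of dams on a control diet over the same period. All 4 groups shared the later treatment: chow after weaning on postnatal day 21, then 4 weeks of obesogenic food starting at 3 months, so no group ate chow up to sampling. The sources used here do not give litter, pooling or batch of preparation. The p-values therefore measure the spread between libraries, some of which may share a litter.

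The hypothalamus both controls and senses thyroid hormone. Blood carries mostly the prohormone thyroxine, T4, which endothelial cells and astrocytes import through the OATP1C1 transporter that Slco1c1 encodes, while the active hormone is triiodothyronine, T3. Astrocytes and the tanycytes that line the floor of the ventricle convert T4 to T3 with type 2 deiodinase, the product of Dio2, and neurons inactivate T3 with type 3 deiodinase, the product of Dio3. In the nucleus T3 binds the receptors TRα and TRβ, encoded by Thra and Thrb, and among the genes that respond in brain are Klf9, a zinc finger transcription factor, and Hr, the corepressor Hairless. Crym encodes µ-crystallin, which holds T3 in the cytosol.

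The genes lie on 6 chromosomes of GRCm38, and each value covers all exons of a gene. Slco1c1 (ENSMUSG00000030235) is at chr6:141524368-141570177 on the plus strand, Dio2 (ENSMUSG00000007682) at chr12:90724552-90738438 on the minus strand, and Crym (ENSMUSG00000030905) at chr7:120186380-120202111 on the minus strand. Thra (ENSMUSG00000058756) is at chr11:98740638-98769006 on the plus strand, Thrb (ENSMUSG00000021779) at chr14:17660261-18038090 on the plus strand, Klf9 (ENSMUSG00000033863) at chr19:23141226-23166911 on the plus strand, and Hr (ENSMUSG00000022096) at chr14:70552212-70573548 on the plus strand. The clock gene Nr1d1 overlaps the end of Thra on the opposite strand, and pairs were counted by strand. Counts were made per gene, so receptor isoforms that share a gene, such as the hormone-binding and non-binding products of Thra, were not separated.

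Upstream sequence from RefSeq (GRCm38.p6) was at hand for 4 of the 7 genes: Dio2, Klf9, Slco1c1 and, with 2 start sites, Thrb. The 250 bases before the start of Dio2 (chr12:90739039-90739288, minus strand) and of Klf9 (chr19:23140976-23141225, plus strand) are shown because the levels of these genes moved together from library to library, as described further on. Capitals mark matches, on either strand, to 4 motifs: AGGTCA, the core element of thyroid hormone receptor sites; TGTTCT, a core element of glucocorticoid receptor sites; TGACGTCA, the cAMP response element; and TATAAA, the TATA box.
Dio2: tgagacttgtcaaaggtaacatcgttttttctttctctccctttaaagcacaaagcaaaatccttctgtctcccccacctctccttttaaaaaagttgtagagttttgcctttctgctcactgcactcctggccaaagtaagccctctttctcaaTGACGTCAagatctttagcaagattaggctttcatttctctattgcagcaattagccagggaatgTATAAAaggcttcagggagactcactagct
Klf9: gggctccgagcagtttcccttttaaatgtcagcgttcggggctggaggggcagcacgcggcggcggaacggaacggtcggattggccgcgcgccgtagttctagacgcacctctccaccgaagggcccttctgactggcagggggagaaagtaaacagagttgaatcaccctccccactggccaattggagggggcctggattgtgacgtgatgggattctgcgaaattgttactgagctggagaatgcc
The Dio2 window held TGACGTCA at positions -95 to -88 and TATAAA at positions -30 to -25, counted from the RefSeq start, which lies upstream of the gene boundary in the count table. The Klf9 window held none of the 4 motifs. Among all 32851 mouse windows of the same length, 1.5% held TGACGTCA, 12.4% TATAAA, 14% AGGTCA and 16.1% TGTTCT, and in the Dio2 and Klf9 windows AGGTCA and TGTTCT were found 0 times. The Slco1c1 window held none of the 4. Of the Thrb windows, the upstream one held AGGTCA at positions -184 to -179, and the downstream one held TGTTCT at -23 to -18 and, on the other strand, -7 to -2, with TATAAA at -167 to -162. These matches describe the letters only, and their absence from 250 bases says nothing of sites elsewhere.

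The libraries held 23118626 to 38547288 counted read pairs, so 1 pair was worth 0.0259 to 0.0433 CPM (the count scaled to a common library size), and the lowest count of any of the 7 genes in any library was 148 pairs. Counting error was therefore small beside the differences between libraries. Of the 31 libraries, 2 went against their sex label in sex-linked transcripts (CON female replicate 7 and CON male replicate 7), and 3 stood apart, with median correlations to the other libraries of 0.91 to 0.936 against 0.967 to 0.979 for the remaining 28. The 20 hypothalamic neuron markers had reads in every group. In CON female replicate 5, 1 of those 3, hypothalamic neuron markers summed to 185 CPM and olfactory bulb markers to 4330 CPM, so its labelled tissue was not borne out by its markers. The other 2 were OB female replicate 3 and CON male replicate 6. The main tests keep all 31 libraries by their labels, and values for the other 26 libraries (6 OB females, 8 OB males, 6 CON females and 6 CON males) are given beside the results on the 7 genes.

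Per exon length of the gene, the hypothalamus held far more Thra RNA than RNA of any other of the 7 genes. Over all 31 libraries Thra averaged 140 ± 8.61 RPKM (CPM per kilobase of exon length; SD, n = 31), with no library under 123 RPKM. Klf9 averaged 22.8 ± 8.47 RPKM, Hr 11.3 ± 5.32 RPKM and Slco1c1 7.37 ± 1.32 RPKM on the same scale. Thrb averaged 4.66 ± 0.989 RPKM, Dio2 4 ± 2.83 RPKM and Crym 3.01 ± 1.45 RPKM. Thra stood clear of all others, its lowest library being above the highest library of each. The neighbours in the rest of this order overlapped in their ranges, and the means of Thrb and Dio2, and of Dio2 and Crym, differed by less than the larger SD of each pair. In bulk tissue fewer cells of a type and less RNA per cell cannot be told apart.

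The genes also differed in how steady they were from library to library within a group, which sets how small a difference each could show. In OB males, the group with no library in doubt, the coefficient of variation of the CPM level was 4.03% for Thra, 15.9% for Slco1c1 and 20.1% for Thrb. It was 32.4% for Klf9, 34% for Dio2, 60% for Crym and 60.4% for Hr in the same libraries. Most of the Crym figure came from 1 library.

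**Figure D1:**
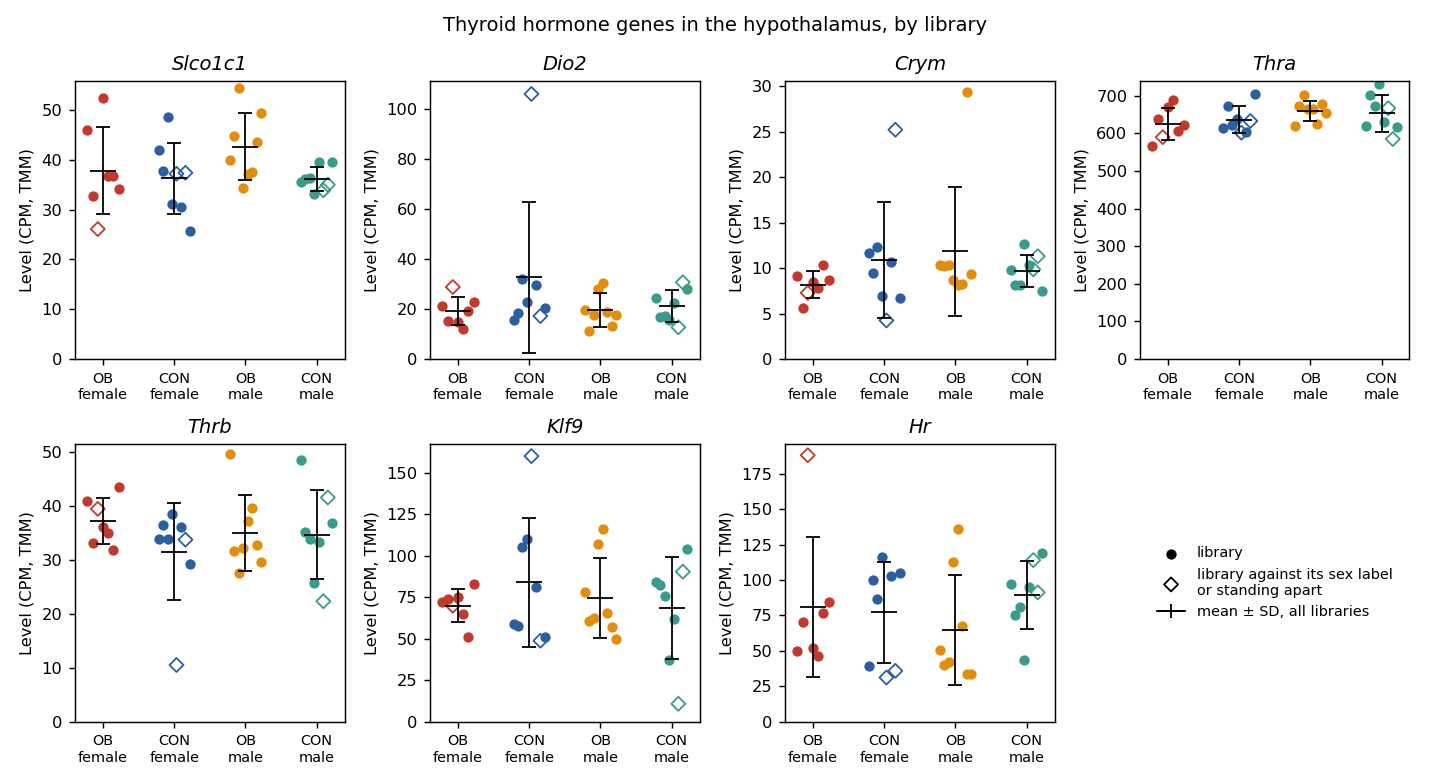
Level of each gene (TMM-scaled CPM, vertical axis from 0) in every library of the OB and CON females and the OB and CON males, with mean ± SD over all libraries; open diamonds are the 5 libraries against their sex label or standing apart. Thra stayed between 566 and 731 CPM throughout, while Hr ranged from 31.2 to 188 CPM, and diamonds lie far from their groups for Dio2 (106 CPM), Thrb (10.5 CPM), Crym (25.2 CPM) and Hr (188 CPM), as does 1 filled point for Crym in OB males (29.3 CPM).

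None of the 7 genes passed the test of maternal diet in either sex. In edgeR's quasi-likelihood test with Benjamini-Hochberg adjustment over 18743 genes, 0 of 7 were called in females and 0 of 7 in males, where the share of all genes called was 0% in each sex, as it was in the mean over sexes. At an unadjusted p under 0.05 stood 1522 of all genes in females (8.12%), 647 in males (3.45%) and 1918 in the mean over sexes (10.2%). Of the 7 genes, 1 stood there in females, 0 in males and 0 in the mean. DESeq2 called 6 genes in females, 1 in males and 5 in the mean, 0 of them among the 7. Of these calls 2, 0 and 0 lay on autosomes, and the fit kept the 2 libraries against their sex label. With the 26 libraries edgeR called 0 genes in each of the 3. Expressed as intervals, the result is tight for Thra and wide for Hr, Dio2, Klf9 and Crym.

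Slco1c1, the T4 transporter gene, lay between 34.4 and 54.4 CPM (median 41.8) in OB males, against 33.1 to 39.6 CPM (median 35.8) in CON males. Of the 8 OB males, 7 were above the CON male mean, and the CON males were the most tightly spread group for this gene. The difference in males was 0.24 ± 0.12 (log2 fold change ± SE), with a 95% interval of 0.00 to 0.48 and an edgeR adjusted p = 0.94, and 0.22 ± 0.12 with the 26 libraries. In females the transporter lay between 26.1 and 52.5 CPM (median 36.7) under OB and between 25.8 and 48.6 CPM (median 37.3) under CON, so the groups overlapped almost entirely. The female difference was 0.06 ± 0.12 (edgeR adjusted p = 0.904), and 0.15 ± 0.13 with the 26. Over both sexes it was 0.15 ± 0.09 with all libraries and 0.18 ± 0.09 with the 26, at edgeR adjusted p-values of 0.53 and 0.624.

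Dio2, which makes T3 from T4, lay between 12.1 and 28.8 CPM (median 19.4) in OB females, against 15.5 to 106 CPM (median 21.6) in CON females. The value of 106 CPM belongs to CON female replicate 5, the library rich in olfactory bulb markers, and 0 of 7 OB females were above the CON female mean of 32.7 ± 30.2 CPM. The next CON female, at 31.9 CPM, was also below that mean. The log2 fold change was -0.77 ± 0.33 with all libraries (unadjusted p = 0.0242, edgeR adjusted p = 0.577). It was -0.21 without that 1 library and -0.39 ± 0.22 with the 26 libraries (edgeR adjusted p = 0.639), where OB females averaged 17.6 ± 4.12 CPM (SD, n = 6) and CON females 23.1 ± 6.41 CPM (SD, n = 6). In OB males Dio2 ran from 11.1 to 30.3 CPM (median 18.2), against 12.7 to 30.7 CPM (median 19.9) in CON males. The groups of males overlapped over nearly their whole range, with a difference of -0.11 ± 0.31 (edgeR adjusted p = 0.972), and -0.09 ± 0.21 with the 26 libraries.

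Crym, the T3-binding µ-crystallin gene, had the lowest level per length and carried a single outlying value among sons of obesogenic dams. OB males lay between 8.12 and 29.3 CPM (median 9.79), against 7.48 to 12.6 CPM (median 9.83) in CON males. OB male replicate 7 alone held 29.3 CPM, the next OB male being at 10.3 CPM, so the difference of 0.29 ± 0.26 (edgeR adjusted p = 0.94) was -0.06 without it. With the 26 libraries, which keep this one, it was 0.33 ± 0.23. OB females lay between 5.65 and 10.3 CPM (median 8.46), against 4.24 to 25.2 CPM (median 10.1) in CON females. The CON female at 25.2 CPM was replicate 7, a library against its sex label; the female difference of -0.41 ± 0.27 (edgeR adjusted p = 0.684) was -0.11 without it and -0.20 ± 0.25 with the 26 libraries.

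Thra, the more abundant receptor gene, gave the narrowest intervals. It lay between 566 and 688 CPM (median 623) in OB females and between 602 and 705 CPM (median 627) in CON females. In OB males it lay between 621 and 702 CPM (median 664), against 585 to 731 CPM (median 649) in CON males. All 4 groups overlapped, and the 95% intervals of the diet difference ran from -0.15 to 0.10 in females and from -0.10 to 0.13 in males on the log2 scale, so larger mean changes of Thra RNA lie outside both intervals. With the 26 libraries the differences were -0.03 ± 0.06 and 0.00 ± 0.06.

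Thrb lay between 31.8 and 43.4 CPM (median 36) in OB females, against 10.5 to 38.5 CPM (median 33.9) in CON females, whose lowest value was again replicate 5. The female difference of 0.24 ± 0.18 (edgeR adjusted p = 0.71) was 0.11 without that library and 0.08 ± 0.12 with the 26 libraries. OB males lay between 27.5 and 49.5 CPM (median 32.5) and CON males between 22.3 and 48.4 CPM (median 34.4). The male groups overlapped throughout and differed by 0.02 ± 0.17 (edgeR adjusted p = 0.991), and by -0.02 ± 0.12 with the 26.

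Klf9 and Hr, which T3 induces in brain, were widely spread between libraries. Klf9 lay between 51.1 and 83.1 CPM (median 71.9) in OB females, against 48.8 to 160 CPM (median 69.9) in CON females. In OB males it lay between 49.9 and 116 CPM (median 64), against 10.8 to 104 CPM (median 79) in CON males. The extremes of 160 and 10.8 CPM were CON female replicate 5 and CON male replicate 6, which stood apart, and all groups overlapped. The diet differences were -0.27 ± 0.30 in females and 0.13 ± 0.29 in males (edgeR adjusted p = 0.814 and 0.963), and -0.15 ± 0.24 and 0.01 ± 0.23 with the 26 libraries.

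Hr ran from 46.3 to 188 CPM (median 70.4) in OB females, against 31.2 to 116 CPM (median 93.4) in CON females. OB female replicate 3, another library that stood apart, held 188 CPM, while the next OB female held 84.3 CPM. With all libraries the female difference was 0.07 ± 0.35 (edgeR adjusted p = 0.963). Its sign turned without OB female replicate 3 (-0.29) and with the 26 libraries (-0.54 ± 0.34, edgeR adjusted p = 0.679), where 0 of 6 OB females were above the CON female mean.

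In OB males Hr ran from 33.7 to 136 CPM (median 46.5), against 43.6 to 119 CPM (median 93.1) in CON males. Replicates 4 and 5, at 113 and 136 CPM, were above the CON male mean of 89.5 ± 23.7 CPM, and the other 6 OB males were below it. The male difference was -0.47 ± 0.34 with all libraries and -0.40 ± 0.32 with the 26 (edgeR adjusted p = 0.94 and 1). Over both sexes the 26 libraries gave -0.47 ± 0.23 for Hr (unadjusted p = 0.0563, edgeR adjusted p = 0.635), while all 31 gave -0.20 ± 0.24 (edgeR adjusted p = 0.786).

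**Figure D2:**
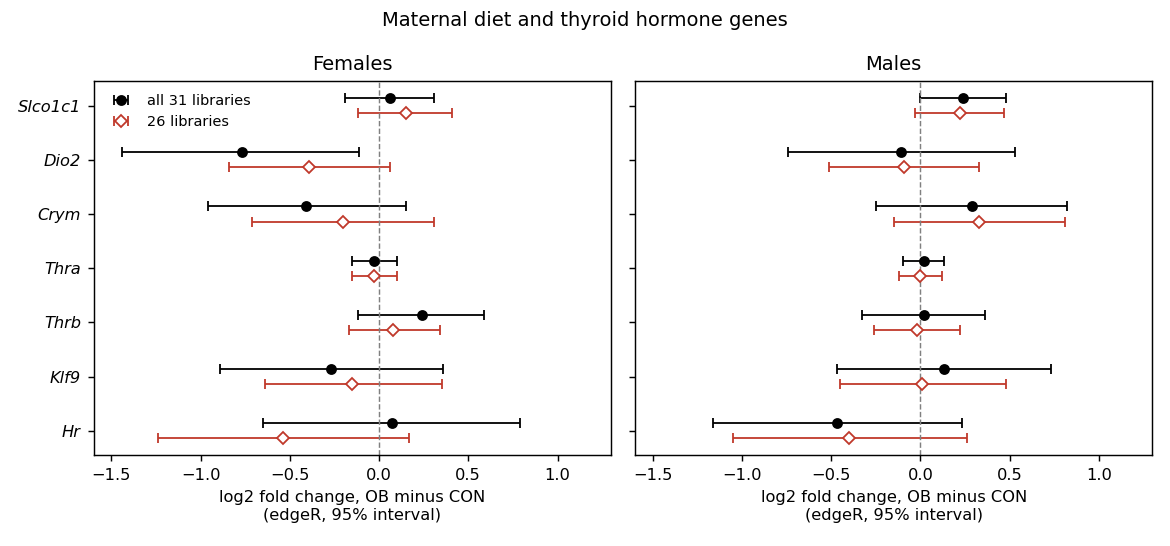
Log2 fold change of each gene, OB minus CON, with its 95% interval from the edgeR fit, in females and in males, with all 31 libraries (black circles) and with 26 libraries (open red diamonds). The Thra intervals are the narrowest, at -0.15 to 0.10 in females and -0.10 to 0.13 in males, and Dio2 in females is at -0.77 with all libraries and -0.39 with the 26.

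The interaction, which tests whether the diet difference differs between sexes, and the differences between females and males within a diet did not pass the test for any of the 7 genes. With all 31 libraries edgeR called 0 of 18743 genes in each of these contrasts (0%), with 679 (3.62%) at an unadjusted p under 0.05 in the interaction, 681 (3.63%) between OB females and OB males and 823 (4.39%) between CON females and CON males, and 0 of the 7 in each. The fits kept the 2 libraries against their sex label, so their 0% cannot serve as a background for sex differences. DESeq2, on the same 31 libraries, called 6, 12 and 1 genes in these contrasts, of which 1, 2 and 1 lay on autosomes. With the 26 libraries edgeR called 14 genes between OB females and OB males (0.0749%) and 11 between CON females and CON males (0.0588%), again 0 of the 7. Of the 14 and 11 genes, 2 and 1 lay on autosomes. Crym was the member with the lowest p between OB females and OB males, and 0 of 7 OB females were above the OB male mean of 11.8 CPM. OB male replicate 7 held 29.3 CPM, and the next OB male, at 10.3 CPM, was also below that mean. The difference was -0.53 ± 0.27 (unadjusted p = 0.0623, edgeR adjusted p = 1). With the 26 libraries it was -0.50 ± 0.24 (unadjusted p = 0.0426, edgeR adjusted p = 0.896), and DESeq2 gave an unadjusted p of 0.0483 with all 31 (adjusted p = 1). Without OB male replicate 7 it was -0.18, and the Crym interaction of -0.70 ± 0.38 (edgeR adjusted p = 1) was -0.35; with the 26 it was -0.53 ± 0.34. Dio2 differed by 0.64 ± 0.31 between CON females and CON males (edgeR adjusted p = 0.995), by 0.07 without CON female replicate 5 and by 0.15 ± 0.22 with the 26.

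The wider pathway was read from lists of transporters, metabolizing enzymes, receptors and partners, coregulators, T3-induced brain genes and the hypothalamus-pituitary-thyroid axis, and edgeR called 0 genes of these lists under either diet contrast. Of the T3-induced genes, 17 of 19 were tested, including Klf9 and Hr. In females 5 of these 17 differences, OB minus CON, were positive and 12 negative, with a median log2 fold change of -0.20 beside -0.013 for all genes, and with the 26 libraries the median was -0.085. In males 9 were positive and 8 negative, with a median of 0.031 beside 0.00038 for all genes, and 12 and 5 with the 26 libraries. Stac2 had the lowest p among them in females, at -0.83 ± 0.34 with all libraries (edgeR adjusted p = 0.56) and -0.08 ± 0.17 with the 26. Nrgn, the neuronal calmodulin-binding protein neurogranin, differed by -0.32 ± 0.15 in females (edgeR adjusted p = 0.598), and by -0.21 ± 0.14 with the 26.

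Among transporters 8 of 10 were tested, and the difference was positive for 2 of the 8 in females and 6 of the 8 in males, and with the 26 libraries for 1 of 8 and 4 of 8. Slco1a4, which encodes another organic anion transporter of brain endothelium, differed by 0.47 ± 0.18 in males (unadjusted p = 0.0144, edgeR adjusted p = 0.94) and by 0.37 ± 0.20 with the 26 libraries. Dio3, the T3-inactivating deiodinase gene, lay between 0.0762 and 1.44 CPM in all libraries and differed by 0.01 ± 0.49 in females and 0.06 ± 0.48 in males, and by 0.58 ± 0.52 and 0.03 ± 0.49 with the 26 libraries, a spread too wide to show a moderate change. Trh, the releasing hormone of the axis, differed by 0.02 ± 0.21 in females and -0.08 ± 0.21 in males (edgeR adjusted p = 0.982 and 0.967), and by 0.02 ± 0.26 and -0.18 ± 0.24 with the 26. Tg, the thyroglobulin gene, had the lowest p of the axis list in females, at 0.0382 to 2.15 CPM in OB females and 0 to 0.281 CPM in CON females. Its difference was 2.38 ± 0.83 (unadjusted p = 0.00708, edgeR adjusted p = 0.524), and 1.04 ± 0.76 with the 26, where OB female replicate 3, the library at 2.15 CPM, is left out. Sult1a1, a sulfotransferase gene, differed by -0.81 ± 0.31 in males with all libraries (edgeR adjusted p = 0.94) and by -0.38 ± 0.26 with the 26. Receptor coregulators were tested in 12 of 12 cases, with 10 positive and 2 negative differences in females and 9 and 3 in males, at medians of 0.075 and 0.061, and with the 26 libraries 8 and 4 in each sex.

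The 7 genes did not vary independently of each other within groups. After each group mean was subtracted from the log2 CPM, Pearson correlations over the 26 libraries were tested by permuting libraries within groups, with adjustment over the 21 pairs, and 7 pairs passed an adjusted p of 0.05. Their centre was a trio: over the 26 libraries together, those with more Dio2 RNA also held more Hr and Klf9 RNA. Within OB females alone, Klf9 correlated at 0.12 with Dio2 and at -0.01 with Hr. The 2 OB males with the highest Hr levels, replicates 4 and 5, were also the highest of their group for Klf9 (107 and 116 CPM) and Dio2 (28.2 and 30.3 CPM).

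Dio2 and Hr correlated most closely (r = 0.76, permutation p = 9e-05, adjusted p = 0.00189; Spearman's rho = 0.73, permutation p = 9e-05). Without the 2 libraries farthest from the median of Dio2 the value was 0.71 (adjusted p = 0.0021). Within groups r was 0.58 in OB females, 0.87 in OB males, 0.54 in CON females and 0.86 in CON males. Klf9 and Hr gave r = 0.67 (permutation p = 0.00077, adjusted p = 0.00499) and rho = 0.60 (permutation p = 0.00269). Without the 2 libraries farthest from the median of Klf9, r was 0.54 with an adjusted p of 0.0534. Within groups it ran from -0.01 in OB females to 0.95 in OB males. Dio2 and Klf9 gave r = 0.66 (permutation p = 0.00081, adjusted p = 0.00499) and rho = 0.66 (permutation p = 0.00116), and 0.62 without the 2 farthest libraries (adjusted p = 0.0168). Within groups their r was 0.12 in OB females, 0.84 in OB males, 0.72 in CON females and 0.65 in CON males. With all 31 libraries, Dio2 and Klf9 kept r = 0.66, whereas Dio2 and Hr were at 0.23 and Klf9 and Hr at 0.16 (adjusted p = 0.455 and 0.495).

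The receptors ran opposite to each other. Thra and Thrb gave r = -0.61 (permutation p = 0.00095, adjusted p = 0.00499) and rho = -0.60 (permutation p = 0.00189), with r = -0.53 without the 2 farthest libraries (adjusted p = 0.0277) and a negative r in each of the 4 groups. Thrb followed Klf9 (r = 0.55, permutation p = 0.00971, adjusted p = 0.034; rho = 0.60, permutation p = 0.00214; r = 0.63 without the 2 farthest), and Thra ran opposite to Dio2 (r = -0.54, permutation p = 0.00505, adjusted p = 0.0212; rho = -0.61, permutation p = 0.00224; r = -0.62 without the 2 farthest). With all 31 libraries Thra and Thrb gave -0.22 and Thrb and Klf9 0.16, neither past the threshold, while Thra and Dio2 gave -0.54.

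Slco1c1, at the start of the route, ran opposite to Hr at its end (r = -0.50, permutation p = 0.0137, adjusted p = 0.041; rho = -0.57, permutation p = 0.00345). Without the 2 farthest libraries r was -0.56 (adjusted p = 0.0313), and with all 31 it was -0.57. The groups were not alike in this pair: r was -0.64 in OB females, -0.79 in OB males and -0.54 in CON females, but 0.84 in the 6 CON males, a contrast between groups that was not tested. Crym passed with no other gene, its closest being Hr (r = -0.51, permutation p = 0.0233, adjusted p = 0.0612).

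Several of the 7 genes also moved with how a library's values depended on gene length and base composition. For each library the deviations of 18728 genes from their means were fitted by straight lines in log2 gene length and in GC content, and the slopes are called the length trend and the GC trend. Of all 31 libraries, OB female replicate 3 had the highest length trend (0.2088) and CON male replicate 6 the lowest (-0.1743), and both stood apart. Over the 26 libraries Thra correlated with the GC trend at r = 0.85, and over all 31 at 0.69. Thrb correlated with the length trend at 0.79 over the 26 but at 0.16 over all 31, and with the GC trend at -0.57 and -0.42. Klf9 correlated with the length trend at 0.55 over the 26 and 0.66 over all 31, and with the GC trend at -0.60 and -0.70. Dio2 gave 0.25 and -0.48 with the length and GC trends over the 26, and 0.58 and -0.38 over all 31. Hr gave 0.35 and -0.30 over the 26, and 0.22 and -0.06 over all 31. With the length trend Thra gave -0.34 over the 26 and -0.41 over all 31. Slco1c1 gave -0.20 and -0.11 with the length and GC trends over the 26, and -0.29 and -0.16 over all 31. Crym gave -0.01 and 0.13 over the 26, and -0.20 and 0.04 over all 31. In the longest transcript Hr has 61.6% GC and Thra 59.8%, against 43.1% to 48.4% for the others. Thrb has the longest exon length of the 7, at 7403 bases. Hr has 6919, Dio2 5815, Slco1c1 5186, Thra 4614, Crym 3391 and Klf9 3263 bases. The part of each gene's own length and base composition in these values was not tested.

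With both trends removed, an alternative added after the data had been seen, 1 of the 21 pairs passed. Dio2 and Hr kept r = 0.74 (adjusted p = 0.0132). Klf9 and Hr were at 0.61 and Dio2 and Klf9 at 0.55 (adjusted p = 0.0694 and 0.0868), Slco1c1 and Hr at -0.53 (adjusted p = 0.0868). The receptor pair was at -0.36 and Dio2 and Thra at -0.28 (adjusted p = 0.277 and 0.332), and Thrb and Klf9 were at -0.04 (adjusted p = 0.971).

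**Figure D3:**
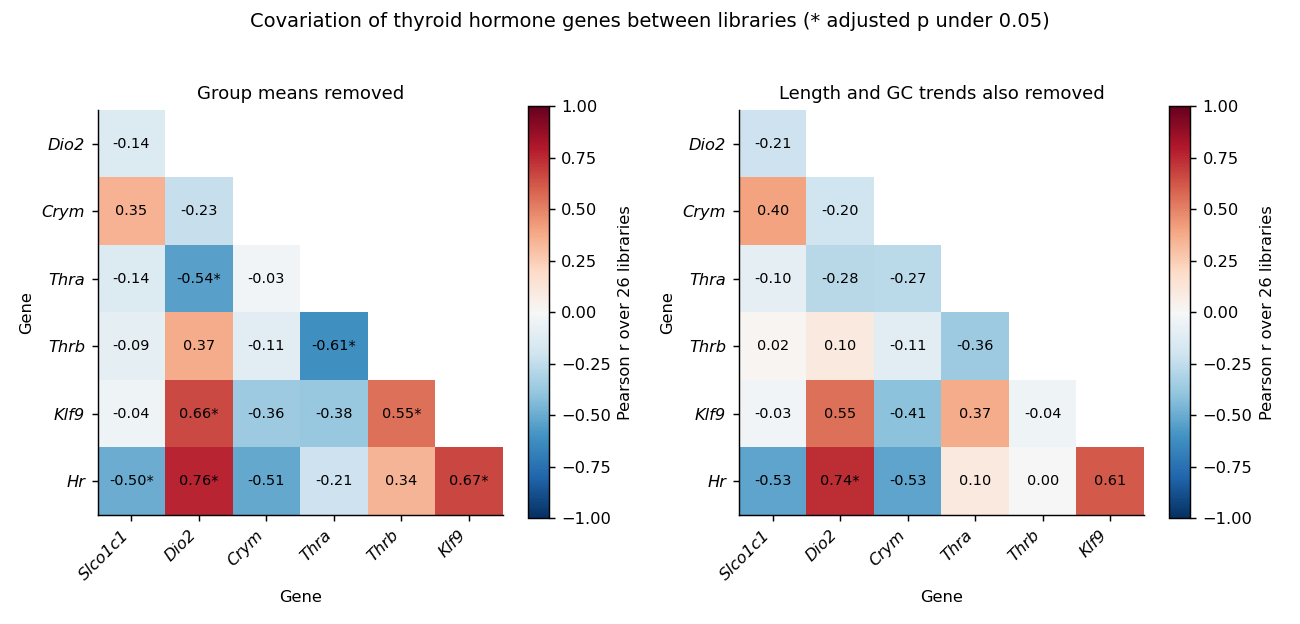
Pearson r between the 7 genes over 26 libraries, with group means removed (left) and with each library's length and GC trends also removed (right); colour gives r from -1 to 1 and an asterisk an adjusted p under 0.05. Of the 7 marked pairs on the left, Dio2 with Hr is the only one marked on the right (0.76 and 0.74).

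Hr, Dio2 and Klf9 also varied with genes that glucocorticoids induce, a set of 14 written down after the data had been seen and given as a description with no test. Over the 26 libraries, with group means removed, the mean log2 CPM of the 14 genes correlated at 0.92 with Hr, 0.76 with Dio2 and 0.74 with Klf9. It correlated at 0.34 with Thrb, -0.18 with Thra, -0.48 with Slco1c1 and -0.53 with Crym. A high value for Hr is partly built in, since Tsc22d3 and Cdkn1a of the 14 rank 8 and 10 among the genes most like Hr in the same libraries. With all 31 libraries the values were 0.83 for Hr, 0.53 for Dio2 and 0.26 for Klf9. Gene by gene, Hr correlated at 0.89 with Tsc22d3 (the leucine zipper protein GILZ), 0.87 with Cdkn1a, 0.84 with Fkbp5 (a cochaperone of the glucocorticoid receptor) and 0.82 with Zbtb16, but at 0.32 with Per1 and -0.34 with Dusp1. The group medians of the 14-gene mean were 5.14 in OB females and 5.36 in CON females, and 4.97 in OB males and 5.11 in CON males, on the log2 CPM scale in the same 26 libraries. Of the 14, Sult1a1 also stood among the metabolizing enzymes above and correlated at 0.77 with Hr. In these libraries the Hr differences, -0.54 in females and -0.40 in males, did not pass the test, and the part of the 14 genes in that difference was not tested.

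**Figure D4:**
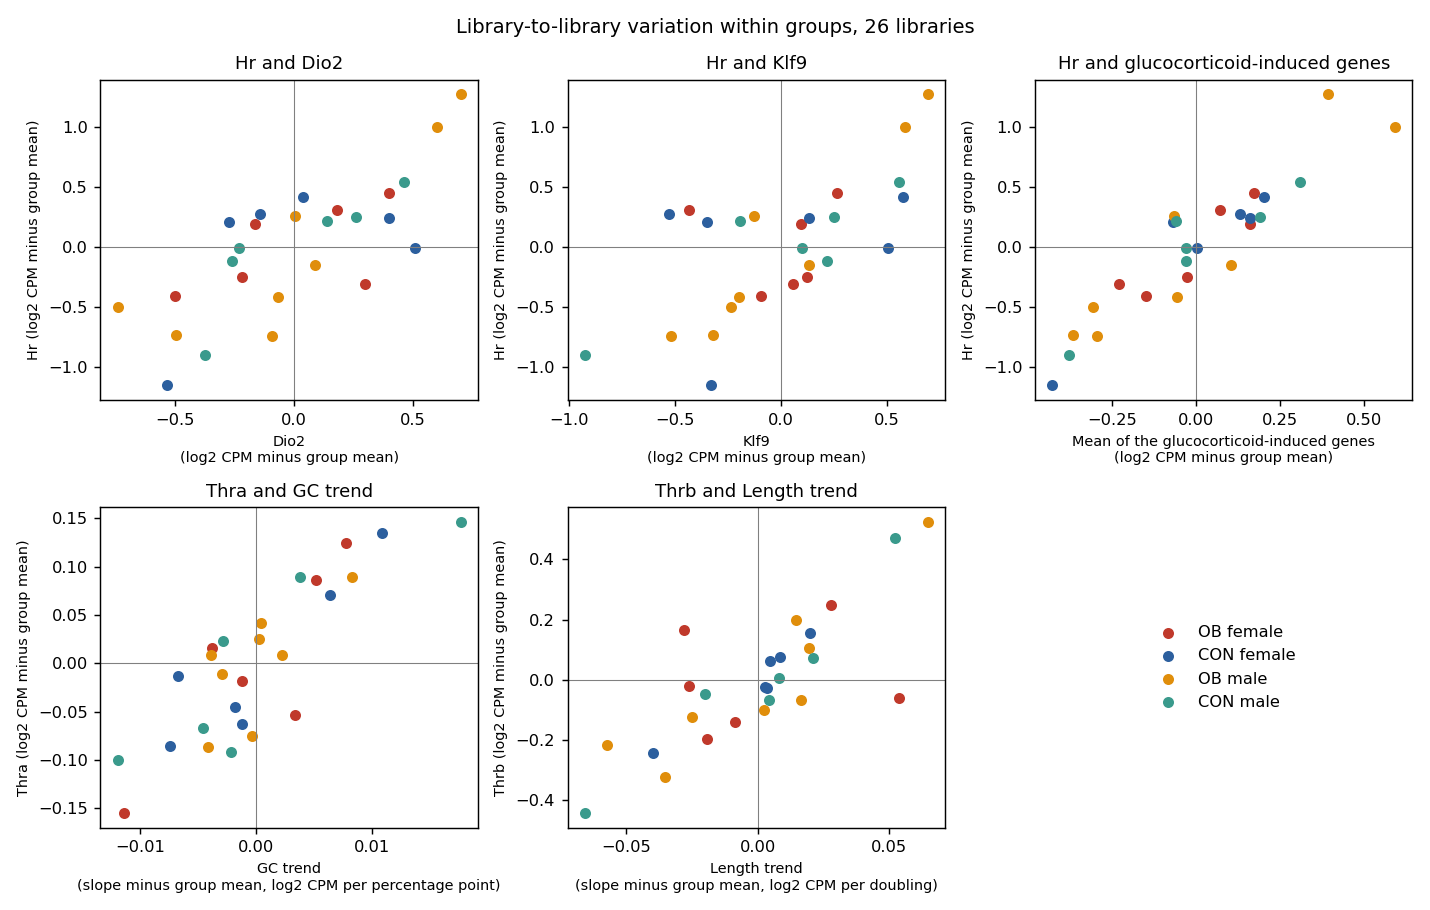
Each point is 1 of 26 libraries, coloured by group, with group means removed from both axes; the panels set Hr (log2 CPM) against Dio2, Klf9 and the mean of 14 glucocorticoid-induced genes, Thra against the GC trend and Thrb against the length trend. Hr lies closest to a line with the glucocorticoid-induced genes (r = 0.92, partly built in, the set being written down after the data had been seen). Thra does so with the GC trend (0.85) and Thrb with the length trend (0.79, and 0.16 over all 31 libraries).

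Cell type markers in the same libraries varied most closely with the transporter. Of 84 pairs of a gene and 1 of 12 marker lists, 2 passed, both with Slco1c1. Endothelial markers, from the cells of the blood-brain barrier where Slco1c1 is known to act, gave r = 0.76 (permutation p = 9e-05, adjusted p = 0.00756; rho = 0.76, permutation p = 0.00015), and r was 0.95 in OB females, 0.72 in OB males, 0.79 in CON females and 0.46 in CON males. Without the 2 farthest libraries the value was 0.75 (adjusted p = 0.021) and with all 31 it was 0.69. The correlations used the mean log2 CPM of the markers in a list. In the 26 libraries the summed endothelial markers lay between 519 and 636 CPM in OB females and 509 and 634 CPM in CON females. They lay between 437 and 604 CPM in OB males and 472 and 589 CPM in CON males, with 15 of 15 markers detected in each group.

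Oligodendrocyte markers gave r = 0.73 with Slco1c1 (permutation p = 0.0005, adjusted p = 0.021; rho = 0.68, permutation p = 0.00117), but 0.60 without the 2 farthest libraries (adjusted p = 0.173) and 0.51 with all 31 (adjusted p = 0.0686). Dio2, known from tanycytes and astrocytes, correlated at 0.22 with tanycyte and 0.47 with astrocyte markers (adjusted p = 0.597 and 0.309). With all 31 libraries these values were -0.34 and -0.19 (adjusted p = 0.353 and 0.523). Klf9 correlated at 0.57 with astrocyte and -0.56 with hypothalamic neuron markers (adjusted p = 0.0682 for each), and with all 31 at -0.06 and -0.44 (adjusted p = 0.877 and 0.00378). The part of cell composition in the levels of the 7 genes was not tested.

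By the likeness of their pattern over the 26 libraries among 15346 named genes, Hr had the closest companions together with Klf9. The 3 genes most like Hr were Mfsd2a, a lysolipid transporter of the blood-brain barrier (r = 0.96), Plin4, a lipid droplet protein (0.96), and Mertk, a phagocytic receptor (0.91), and with all 31 libraries these values were 0.95, 0.96 and 0.73. Those most like Klf9 were Galnt1 (0.94), Gucy1a2 (0.93) and Ubxn2a (0.92), at 0.78, 0.72 and 0.92 with all 31. Those most like Dio2 were Aff1, Plekhf1 and Mxd4 (0.79, 0.79 and 0.78, and 0.73, 0.44 and 0.75 with all 31), with Hr itself at rank 8. Slco1c1 was most like Tek, the endothelial receptor TIE2 and 1 of the 15 endothelial markers (0.83), Phldb2 (0.82) and Prom1 (0.79), at 0.78, 0.74 and 0.58 with all 31.

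Thra was most like Agap3 (0.88), Selenom (0.82) and Ctbp1 (0.81), at 0.81, 0.48 and 0.41 with all 31 libraries. Thrb was most like Atrx (0.88) and Prkar2a (0.87), which with all 31 were at 0.09 and 0.87. Crym was most like Ift57 (0.82), Tbc1d17 (0.67) and Ddn (0.66), and with all 31 these were at -0.19, 0.27 and -0.15. The outlying Crym library, OB male replicate 7, is among the 26. It was at a log2 CPM of 4.874, and the next highest, CON male replicate 4, at 3.659. Crym and telencephalon markers gave r = 0.45 over the 26, and 0.01 without the 2 libraries farthest from the median of those markers. Within groups r was 0.92 in OB males, 0.60 in CON females, -0.58 in OB females and -0.58 in CON males. The part of that library in these values was not tested. All these values are descriptions over libraries that share the length and GC trends given above.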

How the data were processed

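The deposited table holds raw counts of read pairs per gene. Per the file headers, the authors ran featureCounts 1.6.2 with genes of Ensembl GRCm38 release 94, required both mates to align at a mapping quality of at least 10, and counted the reverse strand. The submitters' processing notes also name FastQC, TopHat2 2.0.13, Subread, edgeR and mm10. Total RNA was made into Illumina TruSeq libraries, per the labels' protocols. All 31 columns matched a library title and 0 were left unused; the closest libraries differed by 8.02 times the sampling noise, so none was counted as a repeat.

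Here, edgeR 4.0.16 (R 4.3.3) was run with filterByExpr, TMM scaling, 1 mean per group and robust quasi-likelihood tests, with adjustment over all 18743 genes tested and a threshold of 0.05. A library was called apart where its median correlation was more than 3 median absolute deviations under that of all libraries. Covariation was tested on log2 CPM (prior count 2) with 100000 permutations within groups. RPKM used the exon length of the deposited table. The alternatives were DESeq2 1.42.0, RLE scaling, no filter, 26 libraries, each library left out and, for correlations, all 31 libraries, Spearman's rho and 2 libraries left out. Those 2 were the farthest from the median of 1 gene of the pair, so libraries extreme for the other gene could stay in. That gene was the earlier in the order Dio2, Slco1c1, Thra, Thrb, Crym, Klf9, Hr. With marker lists, the median was that of the list. The scripts were tested on simulated data. The genes and lists were chosen with earlier results of these data known. Besides the 7 genes, the text names 2 genes of lowest p per list, Dio3, Trh and Nr1d1, and the 3 genes most like each; a part of these is printed, and a few that the rule took are not reported here.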

Additional observations from a re-analysis of the deposited data

Results flagged for a closer look

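In 5 of the 28 sets of values (7 genes in 4 groups), 1 library lay far from the others of its group by Dixon's test; chance flags about 1 in 20. Dio2 was at 106 CPM in CON female replicate 5, the next library of the group being at 31.9 CPM. Thrb was at 10.5 CPM in the same library, the next being at 29.2 CPM. This library also held the highest olfactory bulb and the lowest hypothalamic neuron marker sums of its group. Crym was at 29.3 CPM in OB male replicate 7, which matched its sex label and did not stand apart, with the next OB male at 10.3 CPM. Telencephalon markers summed to 139.5 CPM in that library, the highest of its group, where replicate 1 followed at 87.96 CPM. Its olfactory bulb sum, at 709.1 CPM, was also the highest of the group. Crym was at 25.2 CPM in CON female replicate 7, a library against its sex label, with the next at 12.3 CPM. There the telencephalon markers summed to 114.5 CPM, below only replicate 5 of that group, at 804.6 CPM. Hr was at 188 CPM in OB female replicate 3, which stood apart, with the next at 84.3 CPM. Causes were not tested.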

How the results depend on the processing

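No member was called under any alternative. Of 168 values of the 7 genes in 6 contrasts under RLE scaling, no filter, DESeq2 and 26 libraries, 7 changed sign and 161 did not. Values that round to 0.00, such as Thra in the mean over sexes with all 31 libraries, were counted among the 161. All 7 changes came with the 26 libraries: Hr for diet in females (-0.54), in the interaction (-0.14), between OB females and OB males (-0.03) and between CON females and CON males (0.11), Thrb for diet in males (-0.02), Crym in the mean over sexes (0.07) and Slco1c1 between CON females and CON males (-0.03). Without OB female replicate 3, Hr was -0.29 for diet in females and -0.03 between OB females and OB males. Crym was -0.06 for diet in males without OB male replicate 7, and without CON female replicate 7 it was -0.13 between CON females and CON males and 0.09 in the mean over sexes, which was -0.23 without OB male replicate 7. Genes called by DESeq2, against 0 by edgeR, numbered 6 for diet in females, 1 in males, 5 in the mean, 6 in the interaction, 12 between OB females and OB males and 1 between CON females and CON males. In the same order, 2, 0, 0, 1, 2 and 1 of these lay on autosomes. The 26 libraries gave 14 and 11 in the last pair of contrasts, of which 2 and 1 lay on autosomes. Leaving out each library gave 0 to 9 calls between OB females and OB males, 0 to 6 between CON females and CON males, and 0 in the other contrasts; 9 and 6 came without CON female replicate 7. Pairs of genes past the threshold numbered 7, against 3 with all 31 libraries and 1 with the length and GC trends removed, where Thrb and Klf9 turned to -0.04. Pairs with marker lists numbered 2, against 7 with all 31 libraries and 1 without the 2 farthest. The cause was not tested. No paired analysis was possible because replicate numbers follow accession order and pair no libraries.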
